A study of Mus musculus with 4 samples.

Results

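The genes described here encode the DNA replication machinery. A list of 39 genes was looked up by gene symbol in the annotation of a mouse expression array, and 38 of them had a probe set, which is a group of short array sequences that reads 1 transcript. The remaining gene, Chaf1a, a subunit of the histone-depositing complex CAF-1, was not analysed here. The 38 genes were read by 87 probe sets of the 45101 in the table, and the brightest probe set on average stands for each gene. They are 38 of 18194 genes named in this way. They were compared with 12264 genes that reached a log2 level of 3.63, the pooled median of the table, on at least 1 array, and all 38 did so.

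RNA came from Comma D beta, a mouse mammary epithelial cell line. Cells were kept overnight in a low-serum medium (DMEM F12, 2% serum) that held EGF (10 ng/ml) and insulin (5 ug/ml). Doxycycline (dox), a drug widely used to switch engineered genes on or off, was given at 100 ng/ml for 1 day, and untreated cells served as the control. The gene that dox switches here is not stated in the labels. The series title names Bcl11b. Cells were then sorted on the surface protein Sca1 into a Sca1+ and a Sca1- fraction, which with and without dox gave 4 groups of 1 array each. Because each group is 1 array, no difference below has a replicate check, no test was made, and a difference of 2-fold or more (1 log2 unit) is called by size alone. The labels do not say whether both fractions of a treatment came from the same culture. Levels are log2 values that the authors had limited to 3.32 at the low end, the log2 of 10. A value there is called the floor, and a difference from it is a lower bound.

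Replication begins with licensing. In G1, the origin recognition complex (Orc1 and Orc2 among its subunits), Cdc6 and Cdt1 load the ring of Mcm2, Mcm3, Mcm4, Mcm5, Mcm6 and Mcm7 onto origins. In S phase, Mcm10, Cdc45 and the GINS complex turn that ring into an active helicase, and polymerases, primase, the sliding clamp and its loader copy the strands from nucleotides that ribonucleotide reductase, thymidylate synthase and thymidine kinase supply. Many of these genes are known targets of E2F transcription factors, which bind short GC-rich sites near start sites and are held in check by the retinoblastoma protein family in resting cells. The levels below are averages over sorted populations, so fewer cells in S phase and less RNA per cell cannot be told apart.

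Promoters are shown first because their sequences do not use the array levels. The genes were not picked by E2F letters, but many of them are known E2F targets. Their share of matches is therefore not independent of how the list was drawn up. RefSeq windows of 300 bases (250 before and 50 after the start site, build GRCm38.p6) were matched by symbol for 32 of the 39 genes. The letters TTTCCCGC, TTTGGCGC, TTTCGCGC and TTTGCCGC were searched on both strands, and matches may overlap. At least 1 of them lay in the windows of 11 of the 32 genes (34.4%), against 4.70% of the 9892 array genes with a window and 2.60% of all 27025 genes in the promoter table. By role, 7 of 9 licensing genes had a match (Orc1, Cdc6, Cdt1, Mcm3, Mcm5, Mcm6 and Mcm7), 4 of 16 fork genes (Rfc3, Pola1, Pold1 and Lig1) and 0 of 4 nucleotide-supply genes. Shown are the last 160 bases before the start site of 4 licensing genes with a match in that stretch, and of Tk1 and Rrm2, the nucleotide-supply genes with the largest dox differences, which had none. Capitals mark the E2F letters on either strand, and each sequence reads toward the start site:
Orc1: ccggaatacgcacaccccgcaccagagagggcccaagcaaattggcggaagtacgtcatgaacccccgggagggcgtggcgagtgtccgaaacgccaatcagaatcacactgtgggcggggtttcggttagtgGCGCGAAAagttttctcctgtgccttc
Cdc6: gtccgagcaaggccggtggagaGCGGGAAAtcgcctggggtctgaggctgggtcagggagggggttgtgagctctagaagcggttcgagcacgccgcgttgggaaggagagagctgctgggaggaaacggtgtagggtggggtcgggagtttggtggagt
Mcm5: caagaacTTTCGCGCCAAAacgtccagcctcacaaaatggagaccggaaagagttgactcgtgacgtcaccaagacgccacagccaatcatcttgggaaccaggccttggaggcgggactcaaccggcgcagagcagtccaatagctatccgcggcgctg
Mcm6: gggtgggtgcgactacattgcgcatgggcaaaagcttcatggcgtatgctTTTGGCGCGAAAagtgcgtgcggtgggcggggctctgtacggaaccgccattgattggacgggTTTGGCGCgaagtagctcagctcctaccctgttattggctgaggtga
Tk1: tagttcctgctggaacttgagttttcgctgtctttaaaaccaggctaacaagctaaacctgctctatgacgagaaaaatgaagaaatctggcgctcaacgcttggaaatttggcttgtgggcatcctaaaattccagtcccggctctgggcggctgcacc
Rrm2: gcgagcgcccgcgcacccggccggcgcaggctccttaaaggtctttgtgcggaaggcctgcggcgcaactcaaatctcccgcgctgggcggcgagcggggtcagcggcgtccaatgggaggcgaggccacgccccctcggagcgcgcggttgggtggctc

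These stretches lie at chr4:108579294-108579453 on the plus strand for Orc1, chr11:98907991-98908150 on the plus strand for Cdc6, chr8:75109349-75109508 on the plus strand for Mcm5, chr1:128359706-128359865 on the minus strand for Mcm6, chr11:117826015-117826174 on the minus strand for Tk1 and chr12:24708094-24708253 on the plus strand for Rrm2. Counting the base before the start as -1, the match lay from -27 to -20 in Orc1 and from -138 to -131 in Cdc6. Mcm5 had a pair of overlapping matches between -153 and -142. Mcm6 had an overlapping pair between -110 and -99 and a further match from -47 to -40. The CCAAT box, searched by those letters, was in 21 of the 32 windows (65.6%) against 42.8% of array genes. The cell-cycle element CHR, searched as TTTGAA and TTCGAA, was in 5 (15.6%) against 16.2%. A match is a run of letters and not a measured binding site, and no match says only that these letters are not in this window.

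With dox, replication genes were lower as a group, and more so in Sca1- cells. In Sca1+ cells 37 of 38 were below their untreated level, as were 5593 of all 12264 analysed genes. Of the 38, 20 were at least 2-fold lower, where 12.9% of all analysed genes were. In Sca1- cells all 38 were below the untreated level, as were 5701 of the 12264. Of the 38, 28 were at least 2-fold lower there, where 11.3% of all genes were. The 2-fold rule was met in both fractions by 20 genes (background 8.56%). It was met in Sca1- cells only by 8 (333 of all 12264) and in Sca1+ cells only by 0 (531 of 12264). None was 2-fold higher in either, where 8.47% of all genes were in Sca1+ and 7.2% in Sca1- cells. The median dox difference was -1.04 in Sca1+ and -1.47 in Sca1- cells (log2), beside 0.03 and 0.02 over all analysed genes. When all probe sets of a gene were averaged, including those at the floor on every array, 13 rather than 20 genes passed in both fractions. The share of all genes was then 6.64%.

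**Figure D1:**
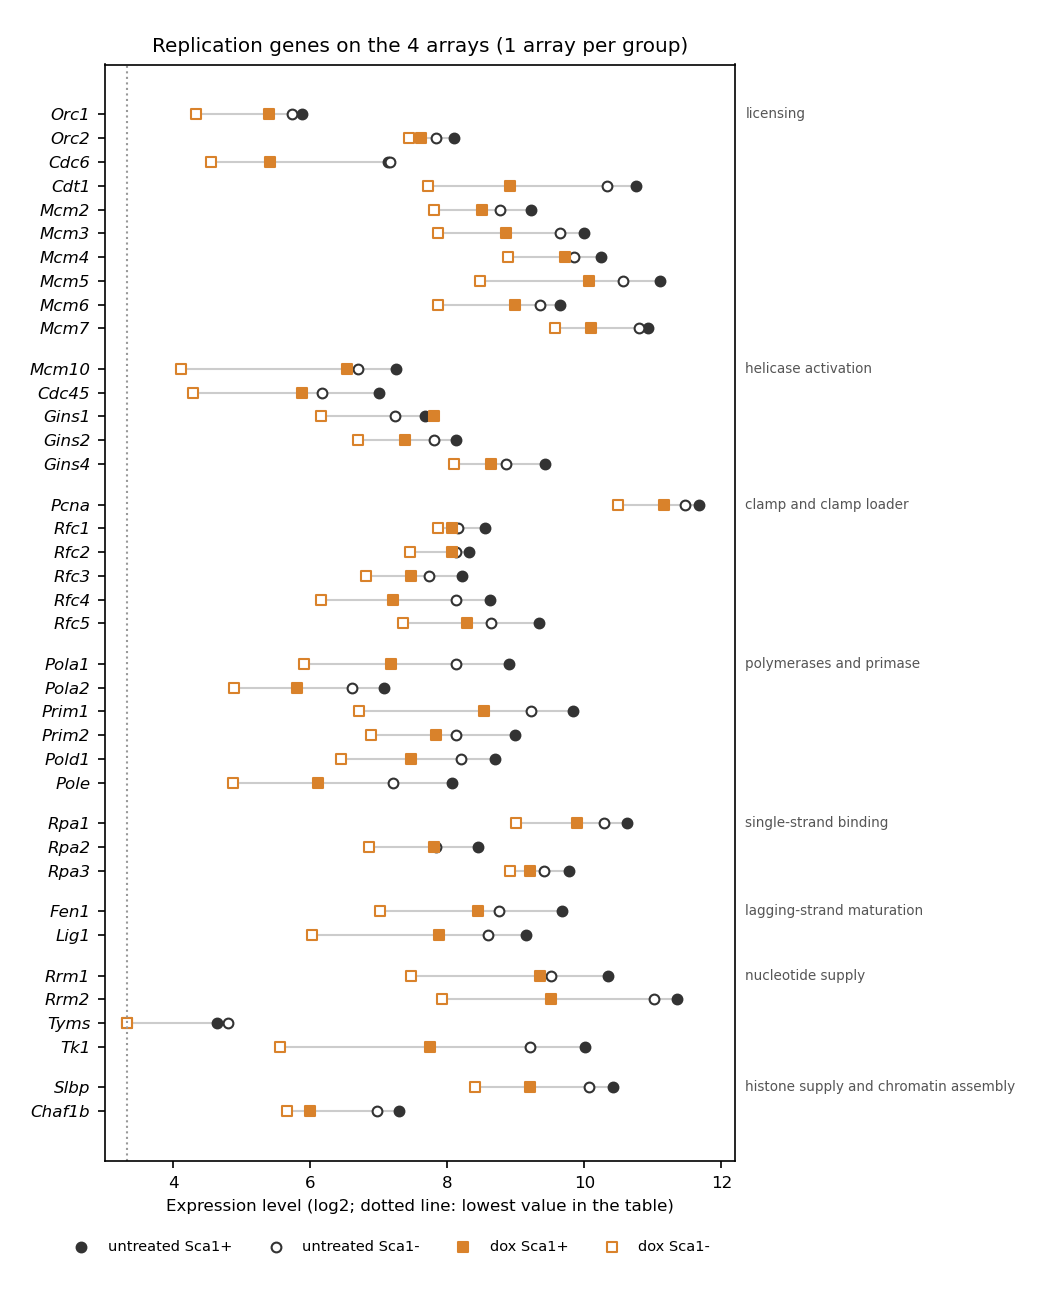
Log2 expression level of each of the 38 replication genes (rows, grouped by role) on the 4 arrays. Circles are untreated and squares dox; filled symbols are Sca1+ and open symbols Sca1-, and the dotted line is the lowest value in the table. The open squares (dox Sca1-) lie furthest left in every row, where the Tyms squares overlap at the floor.

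Origin licensing. Cdt1 and Cdc6, the loaders of the helicase ring, had the largest dox differences among the licensing genes. Cdt1 read 10.75 on the untreated Sca1+ array and 10.33 on the untreated Sca1- array, against 8.92 and 7.71 with dox, which is 3.55-fold lower in Sca1+ and 6.13-fold lower in Sca1- cells. Cdc6 stood at 7.13 and 7.16 without dox and at 5.41 and 4.55 with it, 3.31-fold and 6.11-fold lower. Both untreated arrays were thus above both dox arrays for these loaders. With log2 values under 5 set to 5, the Cdc6 difference in Sca1- cells was -2.16 rather than -2.61. The origin recognition subunits differed from each other. Orc1, the largest subunit, read 5.88 and 5.73 in untreated Sca1+ and Sca1- cells and 5.40 and 4.33 with dox. Its dox difference was therefore -0.49 in Sca1+ and -1.41 in Sca1- cells. With log2 values under 5 set to 5 the Sca1- difference was -0.73, and the second Orc1 probe set gave 0.18 and -0.48. Orc2, another core subunit, ran only from 8.09 (untreated Sca1+) to 7.44 (dox Sca1-), with dox differences of -0.48 and -0.39.

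The 6 ring subunits are present in equal number in the complex, but their transcripts differed with dox by unequal amounts. Mcm5 read 11.10 and 10.57 in untreated Sca1+ and Sca1- cells and 10.07 and 8.48 with dox, 2.04-fold and 4.25-fold lower. Mcm3 read 10.00 and 9.65 without dox and 8.85 and 7.87 with it, 2.23-fold and 3.43-fold lower. By their brightest probe sets, these were the ring genes that passed the 2-fold rule in both fractions. Mcm6 (-0.67 in Sca1+, -1.48 in Sca1-) and Mcm7 (-0.83 and -1.23) passed it in Sca1- cells only. Mcm2 (-0.71 and -0.96) and Mcm4 (-0.53 and -0.96) did not pass it in either. These calls depend on the probe set for 3 of the genes. The second probe sets of Mcm2 (-1.03) and Mcm4 (-1.51) passed in Sca1- cells. Other probe sets of Mcm7 passed in both, 1 at -1.06 and -1.21 and 1 at -1.11 and -1.23. Over the ring, the median dox difference was -0.77 in Sca1+ and -1.35 in Sca1- cells. Over all 10 licensing genes it was -0.77 and -1.44, with 4 genes past 2-fold in both fractions.

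Helicase activation. These genes were unlike each other in how far the fractions lay apart, from -0.01 for Gins4 to 1.86 for Mcm10 (dox difference in Sca1+ minus that in Sca1-). Mcm10, which helps start unwinding, read 7.25 and 6.69 in untreated Sca1+ and Sca1- cells, 6.54 in dox Sca1+ cells and 4.11 in dox Sca1- cells. Its dox difference was -0.71 in Sca1+ but -2.57 in Sca1- cells, so the dox Sca1- array stood far below the other arrays. That level of 4.11 was close to the floor, and with log2 values under 5 set to 5 the Sca1- difference was -1.69. Cdc45, the helicase cofactor, read 7.0 and 6.17 without dox and 5.87 and 4.28 with it, 2.19-fold and 3.73-fold lower. With log2 values under 5 set to 5, its Sca1- difference was -1.17 rather than -1.90. With all probe sets averaged, Cdc45 did not reach 2-fold in either fraction (-0.55 and -0.89). The GINS subunits form a single complex with each other. Gins1 read 7.68 in untreated and 7.80 in dox Sca1+ cells, and 7.23 and 6.15 in Sca1- cells. It was the single gene of the 38 above its untreated level in Sca1+ cells, by 0.11, and this sign turned to -0.08 when arrays were centred on the median of all probe sets. Gins2 (-0.76 in Sca1+, -1.10 in Sca1-) and Gins4 (-0.78 and -0.77) were lower in both fractions. The second Gins2 probe set passed the 2-fold rule in both (-1.14 and -1.20).

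Clamp and clamp loader. Pcna, the sliding clamp that holds polymerases on DNA and a common marker of S phase, read 11.67 and 11.47 in untreated Sca1+ and Sca1- cells and 11.17 and 10.49 with dox. Its dox differences of -0.50 and -0.98 did not reach 2-fold. The 5 subunits of the loader RFC had unlike dox differences. Rfc4 read 8.62 and 8.13 without dox and 7.21 and 6.16 with it, 2.65-fold and 3.91-fold lower. Rfc5 read 9.34 and 8.64 without dox and 8.29 and 7.35 with it, 2.07-fold and 2.45-fold lower. Rfc3 was lower by smaller amounts, -0.74 (Sca1+) and -0.92 (Sca1-). Rfc1, the large subunit, was at -0.48 and -0.29. Rfc2 was at -0.26 and -0.67 by its brightest probe set, while its other probe sets gave -1.01 and -1.49 in Sca1+ cells, so its size there depends on the probe set. The small subunits Rfc2, Rfc3, Rfc4 and Rfc5 also serve in alternative loaders.

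Polymerases and primase. All 6 of these genes met the 2-fold rule in both fractions by their brightest probe sets. With all probe sets averaged, those at the floor on every array included, 3 did not: Pola1 (-0.86 and -1.11), Pola2 (-0.43 and -0.57) and Prim2 (-0.77 and -0.80). Pole, the catalytic subunit of the leading-strand polymerase epsilon, read 8.07 and 7.2 in untreated Sca1+ and Sca1- cells and 6.11 and 4.87 with dox, 3.90-fold and 5.02-fold lower. Pola1, the catalytic subunit of polymerase alpha, which extends primers, read 8.90 and 8.12 without dox and 7.18 and 5.90 with it. It was 3.29-fold and 4.65-fold lower, and its partner Pola2 2.42-fold and 3.28-fold lower. The primase subunits lay together in Sca1+ cells and apart in Sca1- cells. Prim1, the catalytic subunit, read 9.83 and 9.22 without dox and 8.53 and 6.71 with it, a difference of -1.30 in Sca1+ and -2.51 in Sca1- cells. Prim2, the regulatory subunit, was at -1.15 and -1.23. Pold1, the catalytic subunit of the lagging-strand polymerase delta, was 2.34-fold and 3.41-fold lower. For each of these genes both untreated arrays were above both dox arrays.

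Single-strand binding and lagging-strand maturation. The RPA trimer coats unwound strands in replication and in repair. None of its subunits met the 2-fold rule in both fractions. Rpa1 had -0.74 (Sca1+) and -1.28 (Sca1-), 2.43-fold lower in the latter, Rpa2 had -0.65 and -0.97, and Rpa3 had -0.57 and -0.50. Rpa3 read 9.78, 9.41, 9.21 and 8.91 in untreated Sca1+ and Sca1- cells and then in dox Sca1+ and Sca1- cells, a narrow range. Fen1, the flap nuclease that trims Okazaki fragments, read 9.68 and 8.76 in untreated Sca1+ and Sca1- cells and 8.45 and 7.01 with dox, 2.34-fold and 3.37-fold lower. Lig1, the ligase that joins the fragments, read 9.15 and 8.6 without dox and 7.88 and 6.03 with it, 2.40-fold and 5.93-fold lower. The dox Sca1- array was the lowest for both maturation enzymes by more than 1 log2 unit.

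Nucleotide supply. Thymidine kinase Tk1, the salvage enzyme whose transcript is known to peak in S phase, had the largest dox difference of the 38 genes in both fractions. It read 10.01 and 9.20 in untreated Sca1+ and Sca1- cells and 7.75 and 5.56 with dox, 4.79-fold and 12.5-fold lower. In Sca1- cells it was the 10th lowest of the 12264 genes. Ribonucleotide reductase makes deoxynucleotides from a large subunit, Rrm1, and a small subunit, Rrm2, that is limiting in S phase. Rrm2 read 11.35 and 11.01 without dox and 9.51 and 7.92 with it, 3.59-fold and 8.56-fold lower, and was the 42nd lowest in Sca1- cells. Rrm1 read 10.34 and 9.51 without dox and 9.35 and 7.47 with it, 1.98-fold and 4.12-fold lower. It missed the 2-fold rule narrowly in Sca1+ cells by its brightest probe set, while another passed in both fractions (-1.19 and -1.81). Tyms, thymidylate synthase, was near the floor by the probe sets that carry its symbol alone: 4.64 and 4.79 without dox and at the floor on both dox arrays, which bounds the difference at 2.5-fold or more in Sca1+ and 2.76-fold or more in Sca1- cells. A further probe set shared with a Tyms pseudogene was not used here, and the Tyms values say little about the level of its transcript.

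Histone supply and chromatin assembly. Slbp binds the stem-loop of replication-dependent histone transcripts, and Chaf1b is the middle subunit of CAF-1, which deposits new histones behind the fork. Slbp read 10.42 and 10.07 in untreated Sca1+ and Sca1- cells and 9.20 and 8.41 with dox, 2.33-fold and 3.15-fold lower. Chaf1b read 7.29 and 6.97 without dox and 6.0 and 5.66 with it, 2.44-fold and 2.49-fold lower. Chaf1b thus had a nearly equal difference in both fractions, while that of Slbp was larger in Sca1- cells. With all probe sets averaged, those at the floor included, neither gene reached 2-fold in either fraction. Slbp was then at -0.64 (Sca1+) and -0.92 (Sca1-), and Chaf1b at -0.70 and -0.66. A second Slbp probe set, above the floor on all arrays, gave -0.69 and -1.12.

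Compared by role, the median dox difference was -0.77 in Sca1+ and -1.44 in Sca1- cells for the 10 licensing genes. It was -0.91 and -1.29 for the 22 fork genes, from helicase activation to lagging-strand maturation. It was -1.58 and -2.57 for the 4 nucleotide-supply genes, a pair of medians that rests on few genes and includes the bounds of Tyms. Licensing and fork genes overlapped over most of their range, from -1.83 to -0.48 and from -1.96 to 0.11 in Sca1+ cells. Within the fork, the medians of polymerases and primase (-1.29 and -1.99) and of maturation enzymes (-1.25 and -2.16) were further below 0 than those of the clamp and its loader (-0.62 and -0.95) and of RPA (-0.65 and -0.97). With all probe sets averaged, the polymerase and primase median in Sca1- cells was -1.25. No test of the differences between role groups was made. The 11 genes with a match had medians of -1.15 and -1.78, and the 20 measured replication genes whose window had none had -1.09 and -1.56.

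**Figure D2:**
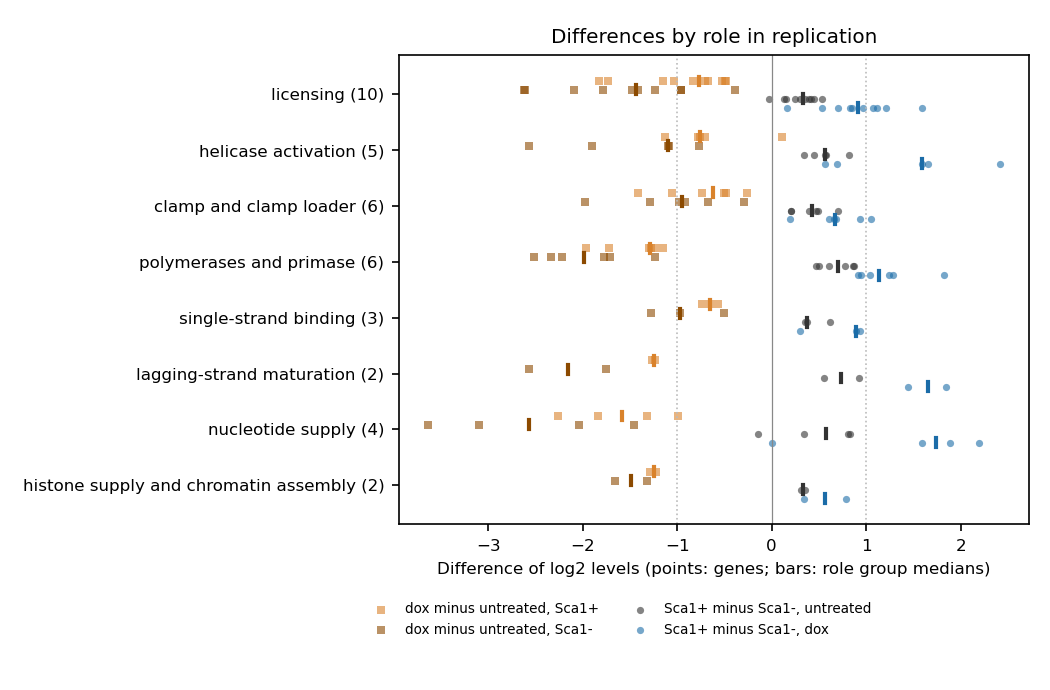
Differences of log2 levels (horizontal axis) for the genes of each role group, with the number of genes in brackets. Squares are dox minus untreated, circles Sca1+ minus Sca1-, and bars the group medians; dotted lines mark 2-fold. The dox Sca1- medians run from -0.95 for the clamp and its loader to -2.57 for nucleotide supply, and all Sca1 medians lie above 0.

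The dox difference was further below 0 in Sca1- than in Sca1+ cells for 34 of the 38 genes, where 48.7% of all analysed genes were so. The exceptions were Orc2, Rfc1, Rpa3 and Gins4, whose dox differences in the fractions lay within 0.20 of each other. In 8 genes the gap was 2-fold or more, where 3.69% of all genes had such a gap: Mcm10 (1.86), Tk1 (1.38), Lig1 (1.30), Rrm2 (1.25), Prim1 (1.21), Gins1 (1.20), Mcm5 (1.06) and Rrm1 (1.05). The median gap was 0.49 over the 38 genes and -0.01 over all analysed genes. With the all-probe-set median as the centre, the counts of 34 and 8 became 30 and 4. That centring moved the median dox difference of all genes to -0.16 in Sca1+ and 0.06 in Sca1- cells. With all probe sets averaged the counts were 32 and 4, and with log2 values under 5 set to 5 they were 33 and 7. The gap in dox difference between the fractions is by arithmetic the same number as the gap in Sca1 difference between the treatments, so it is not a second observation.

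**Figure D3:**
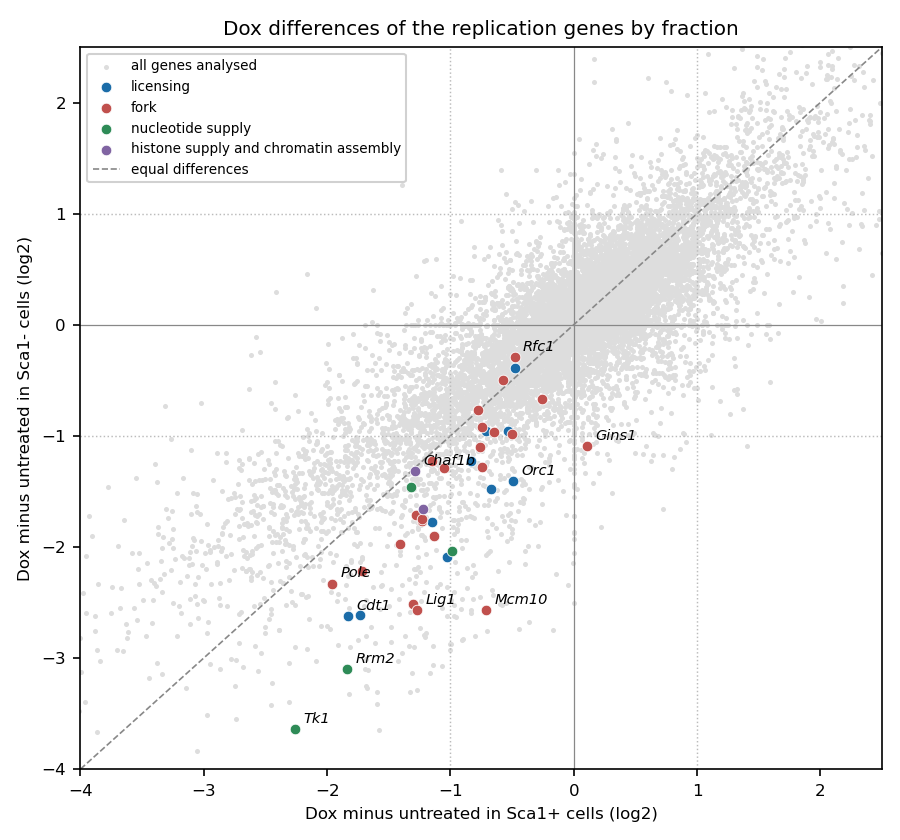
Dox minus untreated in Sca1+ cells (horizontal) against the same in Sca1- cells (vertical), in log2 units, for the 38 replication genes over all analysed genes in grey; grey points beyond the axes are not drawn. Dotted lines mark 2-fold and the dashed line equal differences. Most replication genes lie below the dashed line, Tk1 lowest at -2.26 and -3.64, and Gins1 alone lies to the right of 0.

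Sca1+ cells had higher levels of replication genes than Sca1- cells, by small amounts without dox and larger ones with it. Without dox, 36 of 38 genes were higher in Sca1+ cells, as were 5355 of all 12264 analysed genes. By the brightest probe sets none reached 2-fold, where 3.07% of all analysed genes were higher and 3.33% lower by that size. Dimmer probe sets of Rrm1 (1.24) and Mcm5 (1.23) did reach it. The largest differences by the brightest probe sets were those of Fen1 (0.92), Pole (0.87) and Prim2 (0.86). The median was 0.45 beside -0.01 over all genes. Cdc6 (-0.03) and Tyms (-0.14, close to the floor) were the genes not higher. In dox cells, 17 of the 38 were higher in Sca1+ by 2-fold or more, where 2.52% of all genes were. None was 2-fold lower, where 2.98% were, and Tyms was at the floor in both fractions. The 36 genes above 0 without dox were also above 0 with it, where 24.4% of all genes were above 0 in both. The median was 0.95 beside -0.03 over all genes.

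Mcm10 was 5.37-fold higher in dox Sca1+ than in dox Sca1- cells, against 1.48-fold without dox, and ranked 52nd from the highest of 12264 genes. Its dox Sca1- level of 4.11 was close to the floor. With log2 values under 5 set to 5, its Sca1 difference with dox was 1.54 rather than 2.42. Averaging its probe sets above the floor on at least 1 array gave 1.21. Tk1 was 4.55-fold higher with dox and 1.75-fold without, Rrm1 3.70-fold and 1.78-fold, Lig1 3.62-fold and 1.47-fold, and Prim1 3.54-fold and 1.53-fold. By role, the median Sca1 difference without and with dox was 0.33 and 0.91 for licensing, 0.52 and 0.95 for the fork and 0.57 and 1.74 for nucleotide supply. The levels of 35 of the 38 genes ran in the order untreated Sca1+, untreated Sca1-, dox Sca1+, dox Sca1- from high to low, an order seen in 6.82% of all analysed genes. With single arrays it is not known which neighbours in this order differ by more than replicate error. With the all-probe-set median as the centre, the untreated count of 0 became 7, where 5.24% of all genes were higher by that size. That centring moved the median Sca1 difference of all genes to 0.21.

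**Figure D4:**
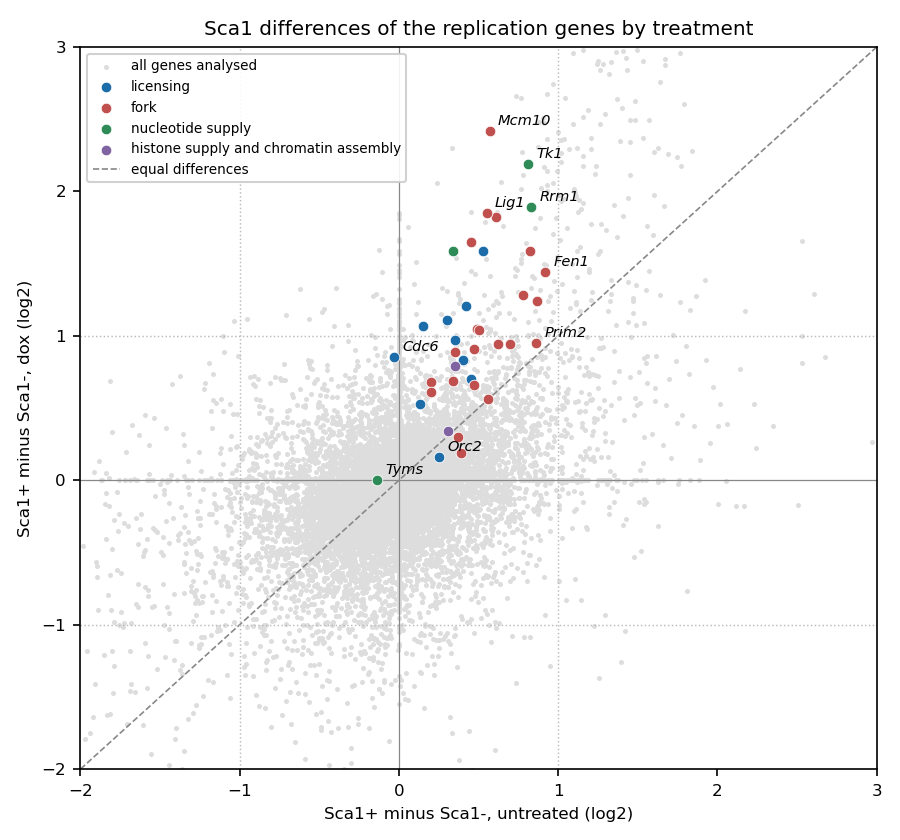
Sca1+ minus Sca1- without dox (horizontal) against the same with dox (vertical), in log2 units, for the 38 replication genes over all analysed genes in grey; grey points beyond the axes are not drawn. Dotted lines mark 2-fold. No replication gene passes 1 on the horizontal axis, and 17 pass it on the vertical axis, Mcm10 highest at 2.42.

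Where a gene had several probe sets, they mostly gave the same direction. Of the 38 genes, 30 had more than 1, which left 49 probe sets besides those chosen. Of these, 11 lay at the floor on all 4 arrays, 7 on some and 31 on none. Among the 31, the dox difference had the sign of the chosen probe set in 30 for Sca1+ and in 31 for Sca1- cells, with median gaps to it of 0.24 and 0.20. The exception was the second Orc1 probe set, at 0.18 in Sca1+ cells. In Sca1+ cells 23 of the 31 were further below 0 than the chosen probe set, and in Sca1- cells 12 of the 31 were. For example, the Mcm4 probe sets gave -0.53 and -0.80 in Sca1+ and -0.96 and -1.51 in Sca1- cells. For Mcm3, the 4 probe sets above the floor ran from -1.76 to -1.15 in Sca1+ cells. The call of 2-fold lower in both fractions differed from that of the chosen probe set for 5 of the 31, from Gins2, Mcm7, Rrm1 and Slbp. The Sca1 difference had the chosen sign in 30 of the 31 without dox and 29 with it. The second Orc1 probe set was at -0.86 and -0.20, against 0.15 and 1.07 for the chosen one. An Rfc2 probe set was at -0.22 with dox.

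**Figure D5:**
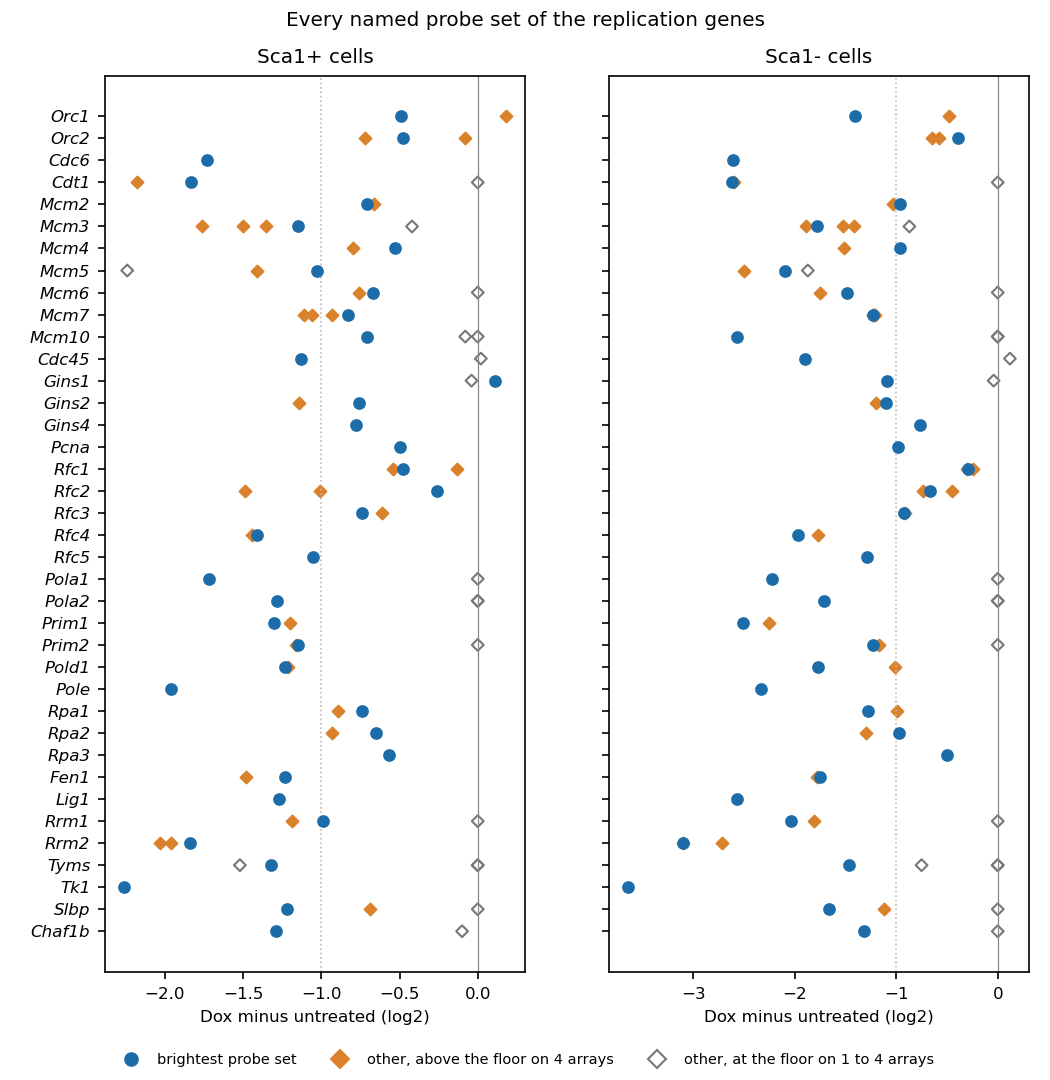
Dox minus untreated (log2) for every named probe set of the 38 genes, in Sca1+ cells (left) and Sca1- cells (right). Blue circles are the brightest probe set of each gene, orange diamonds other probe sets above the floor on all 4 arrays, and open diamonds probe sets at the floor on 1 to 4 arrays. Among orange diamonds only the Orc1 probe set at 0.18 in Sca1+ cells lies right of 0.

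Other genes of the pathway were read from lists of licensing, fork, nucleotide, chromatin and E2F-related genes and of repair polymerases and ligases. Of the 90 analysed, 26 were at least 2-fold lower with dox in both fractions and 0 higher, beside the background of 8.56% lower and 5.29% higher. Among 14 further licensing genes these were Orc6, Recql4 and Mtbp. Orc3, Orc4 and Orc5, subunits of the same complex as Orc1 and Orc2, were not 2-fold different, with Orc4 at 0.52 in Sca1+ and 0.66 in Sca1- cells. Among 23 fork genes, 10 were lower in both: the polymerase delta subunits Pold2, Pold3 and Pold4, the fork-protection and checkpoint genes Tipin and Clspn, Wdhd1, Dscc1, Atad5, Top2a and Exo1. Dscc1, part of an alternative clamp loader, was at -1.17 and -3.13, and Clspn, a checkpoint mediator at forks, at -1.82 and -2.55. The polymerase epsilon subunits did not share the size of Pole: Pole2 was at -0.71 and -0.61, Pole3 at -0.18 and -0.41, and Pole4 at 0.15 and 0.24.

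Of 15 other nucleotide enzymes, 3 were lower in both fractions, namely the deoxycytidine kinase gene Dck (-1.80 and -2.14), the deaminase gene Dctd (-1.78 and -1.83) and the dUTPase gene Dut (-1.5 and -1.15). Cad, which starts pyrimidine synthesis, was at 0.46 and 0.40. Rrm2b, a ribonucleotide reductase subunit used outside S phase, was at 0.30 and 0.19, with the opposite sign to Rrm2. Of 8 chromatin genes, the histone chaperone gene Asf1b (-1.26 and -2.18) and Uhrf1, which guides maintenance methylation (-1.24 and -2.49), were lower in both. Asf1a, the paralogue of Asf1b, was at 0.36 and 0.29. Of 19 E2F and related genes, 8 were lower in both: E2f2, E2f8, Dtl, Skp2, Cdca7, Hells, Tfdp2 and Mybl2, with E2f8 at -1.68 and -2.80. Mybl2 was at the floor in dox Sca1- cells, so its difference there (-1.98) is a bound. E2f2 was close to the floor with dox (4.57 in Sca1+, 4.20 in Sca1-). E2f1 had -0.51 (Sca1+) and -1.61 (Sca1-), and Rb1 at -0.08 and -0.27. E2f5 was at 1.25 and 0.97.

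Repair polymerases and ligases were mixed in direction. The 11 analysed had a median dox difference of 0.53 in Sca1+ and 0.59 in Sca1- cells. Of them 7 were above 0 in Sca1+ cells, where 52.0% of all analysed genes were, and 8 in Sca1- cells, where 51.3% were. Rev3l, the catalytic subunit of the translesion polymerase zeta, was at 1.08 and 0.92. Lig3 was at 1.01 and 0.59 and Lig4 at 0.60 and 0.67, where the replicative Lig1 was at -1.27 and -2.57. Polh (-0.85 and -0.74), Poll (-0.34 and -0.09) and Mad2l2 (-0.25 and -0.06) were below 0 in both fractions, and Rev1 was at -0.32 and 0.17.

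Genes of other cell-cycle stages and cell types also differed between the arrays, and their part in the results above was not tested. All 19 analysed G2/M genes were below their untreated level in both fractions, where 36.5% of all analysed genes were. Their median dox differences were -0.87 in Sca1+ and -2.62 in Sca1- cells. Their Sca1 differences were larger than those of the replication genes, with medians of 1.28 without and 2.88 with dox. In untreated cells 17 of 19 were at least 2-fold higher in Sca1+, where 3.07% of all analysed genes were. Of the 38 replication genes 0 were, or 7 with the all-probe-set median as the centre. Top2a is on both the G2/M and the fork list. Of the 19, 7 were at least 2-fold lower with dox in both fractions (background 8.56%): Mki67, Cdk1, Aurkb, Bub1, Cenpf, Kif11 and Top2a. All 8 epithelial markers were above the floor on all arrays, but basal and luminal markers differed between the groups. The luminal keratins Krt8 and Krt18 were lower in untreated Sca1+ than in Sca1- cells, by log2 differences of -1.69 and -1.60, and at -1.46 and -0.74 with dox. The basal markers Trp63 (1.36 without and 1.08 with dox), Itga6 (0.62 and 0.57) and, without dox, Krt5 (0.70) were higher in Sca1+ cells. Krt14 was at 0.23 and -0.05, Epcam at -0.36 and -0.64 and Cdh1 at -0.40 and -0.21. With dox, Krt5 (-4.0 in Sca1+, -3.13 in Sca1-) and Krt8 (-1.73 and -1.96) were 2-fold lower in both fractions. Dox differences of the other 6 were -1.04 and -0.76 for Epcam, 0.07 and -0.79 for Krt18, and between -0.43 and 0.38 for the remaining 4. The gene for Sca1, Ly6a, was not analysed here, so the sort was not checked on its transcript. Of markers of other cell types, 8 or 9 of 9 T-cell and 6 to 8 of 10 leukocyte genes were at the floor on each array, as were 4 to 9 of 10 fibroblast and 6 or 7 of 8 endothelial genes. The 4 adipocyte genes were at the floor throughout. The defining genes Cd3e, Ptprc, Cdh5 and Col1a1 were at the floor on all arrays. Summed linear levels ran from 90.0 to 95.5 for T-cell, 107 to 182 for leukocyte, 109 to 788 for fibroblast and 83.6 to 102 for endothelial markers. The higher fibroblast and leukocyte sums on dox arrays came with Dcn (3.32 on both untreated arrays, 9.41 and 8.42 with dox) and Cd68 (3.37 and 3.76, then 6.16 on both).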

How the data were processed

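Biotin-labelled RNA of 4 groups was hybridised to 4 Affymetrix 3' expression arrays, 1 per group, per the labels' protocols. The deposited table holds log2 expression levels per probe set. How the authors summarized and scaled them, and the genome build: not given in the sources used here. Levels under a linear value of 10 had been set to 10, as the shared minimum shows, and 44.8% to 48% of probe sets lay there on each array. Array medians ran from 3.48 to 3.70. No detection calls or replicates were used, so precision is limited by the number of arrays.

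Of 45101 probe sets, 34958 had 1 gene symbol in the platform annotation and were named, 932 had several and 9211 were not listed. Each gene is its probe set with the highest mean. Differences were taken between unrounded log2 levels with Python 3.11.15 and pandas 2.3.3, and the steps were tested on simulated data. Differences of 2-fold or more are called by size. All 38 measured members are described. Of the lists of other replication genes, those 2-fold lower with dox in both fractions or 2-fold higher in a fraction are named. A few related ones, and the G2/M and epithelial marker genes named, were chosen after their values were seen. Members and lists were chosen with earlier results of these data known. Alternatives changed the centring, normalization, floor, probe set rule and size rule.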

Additional observations from a re-analysis of the deposited data

Results flagged for a closer look

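Gins1 went in opposite directions with dox in the fractions, with log2 differences of 0.11 (Sca1+) and -1.09 (Sca1-). Cdc6 had Sca1 differences of opposite sign, at -0.03 without dox and 0.85 with it. Each value compares 1 array with 1 array, and neither difference between groups was tested. Both sign contrasts were absent when arrays were centred on the median of all probe sets, where Gins1 was at -0.08 in Sca1+ cells and Cdc6 at 0.19 without dox.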

How the results depend on the processing

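No paired analysis was possible because each group has 1 array and the labels give no replicate numbers. An additive fit of dox and Sca1 was not run. Its single residual per gene would be the gap between fractions that the report gives, not replicate error. Across 9 alternatives, 34 of 45 counts of replication genes past the size rule stayed within 1.5 times the reported count. No role-group median changed sign under the 7 that do not alter the size rule. Of the 308 group medians taken under these, 15 moved by more than 0.25 log2 units. Using the all-probe-set median as the centre, a value close to the floor, moved the median of all genes to -0.16 for dox in Sca1+ cells and to 0.21 for untreated Sca1. It raised the count of genes 2-fold different between untreated fractions from 0 to 7, all higher in Sca1+, where 5.24% of all genes were. It also moved the share of higher genes among all called from 39.7% to 27.3% for dox in Sca1+ cells and from 48% to 70.0% for untreated Sca1. Averaging all probe sets of a gene gave 13 genes lower with dox in Sca1+ cells and 13 in both fractions. The shares of all genes were then 10.2% and 6.64%. It gave 11 genes higher in dox Sca1+ cells, where 1.79% of all genes were. The averages include probe sets at the floor on all arrays. Averaging only probe sets above the floor on at least 1 array, an alternative chosen after seeing the data, kept those counts within 1.5 times and gave 1 gene for untreated Sca1. At 1.5-fold, 10 genes differed between untreated fractions, where 9.02% of all genes were lower and 8.47% higher in Sca1+. Between dox fractions 31 differed at that size, where 8.99% of all genes were lower and 6.89% higher. At 3-fold, 6 were lower with dox in Sca1+, 18 in Sca1- and 6 in both, where 6.54%, 5.33% and 3.52% of all genes were. Between dox fractions 9 differed by 3-fold, where 0.693% of all genes were lower and 1.17% higher in Sca1+. Values close to the floor, as for Tyms, are bounds and limit what low genes can show.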
